A study of Homo sapiens with 8 samples.

Results

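The expression of 8 genes that MLL fusions are known to activate was examined in MV4-11 cells: HOXA3, HOXA5, HOXA7, HOXA9, HOXA10, MEIS1, PBX3 and MEF2C. They were chosen by symbol among the 26364 gene symbols of the expression table, and all 8 were found. MV4-11 is an established human acute myeloid leukaemia (AML) line with the fusion MLL-AF4 and an internal tandem duplication of FLT3. RNA was sequenced from 4 groups of 2 libraries each, which received the vehicle DMSO, tranylcypromine (TCP, an inhibitor of the histone demethylase LSD1) at 5 µM, palbociclib (an inhibitor of the kinases CDK4 and CDK6) at 0.5 µM, or both molecules. The labels give day 4 for all groups, and the study describes its RNA-seq with 4 days for each molecule alone and for both, while its general methods describe 1 day of the CDK6 inhibitor alone followed by 3 days with both molecules. All groups are the same line, so every library carries the fusion and the FLT3 duplication, and nothing in the labels says whether the 2 libraries of a group came from separate cultures, so p-values measure only the spread between these libraries.

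The MLL protein (gene KMT2A) is a histone methyltransferase that keeps HOX genes active in early blood progenitors. In MLL-rearranged leukaemia its N-terminal part is joined to a partner such as AF4 (gene AFF1), and the fusion recruits elongation factors and the H3K79 methyltransferase DOT1L to its targets. The 5′ HOXA genes and their cofactors are the best known of these targets, and the leukaemic cells depend on them. HOXA proteins are homeodomain factors that bind DNA together with the MEIS and PBX proteins of the TALE homeodomain class, and MEF2C is a MADS-box factor that is also part of this programme.

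Expression is given in TPM, transcript abundances per gene length that the authors derived from read counts and that sum to the same total in each library. Fold changes are differences of log2(TPM + 1) between group means, tested with limma over the 14151 genes that reached 1 TPM in 2 or more libraries, and adjusted p are Benjamini-Hochberg values over these genes. A gene is called where its log2 fold change is at least 1 in either direction with an adjusted p below 0.01. Changes under the fold threshold are described as a fall or a rise where the adjusted p was below 0.05. An exact permutation test of 2 libraries against 2 cannot give a p below 0.333 and was not used.

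Each library had 13320 to 13640 genes at 1 TPM or more, and the read depth is unknown. The 10 most abundant genes took 9.12% to 9.67% of all TPM in the DMSO and TCP libraries and 14.0% to 15.8% in the palbociclib and combination libraries. The summed TPM of 12 myeloid markers was 1343 to 2367 in DMSO and TCP, 21840 to 24263 with palbociclib and 40358 to 41009 with the combination. LYZ alone had 16431 and 18984 TPM with palbociclib and 26591 and 28617 TPM with the combination, so the sum does not describe each marker. Cells of the study were kept on HS-5 stromal cells by its methods, and the summed TPM of 9 stromal markers was 14.1 to 49.0 in 7 libraries and 157 in palbociclib replicate 2. Of 8 lymphoid and erythroid markers 2 were tested. NKG7 had 168 to 207 TPM in DMSO and TCP and 277 to 311 TPM with palbociclib or the combination, CD79A had 1.74 to 2.85 and 0.648 to 1.02 TPM, and the defining markers CD3E, MS4A1, HBB and HBG1 were at 0 in all libraries. The stromal sum was higher in replicate 2 than in replicate 1 of every group. The values of this paragraph go with the groups, with the replicate number or with 1 library, and their part in the results below was not tested.

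The HOXA genes of MV4-11 were expressed at very unequal levels along the cluster. HOXA9 (ENSG00000078399, GRCh37 chr7:27202057-27214799, minus strand) and HOXA10 (chr7:27210224-27219880, minus strand) had 87.1 to 166 and 58.3 to 108 TPM over the 8 libraries. Their 5′ neighbours were lower, HOXA11 with 5.30 to 14.3 TPM and HOXA13 with 0.382 to 2.80 TPM. HOXA2 to HOXA7, the genes next to them on the other side, had 0.592 TPM or less in every library.

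**Figure D1:**
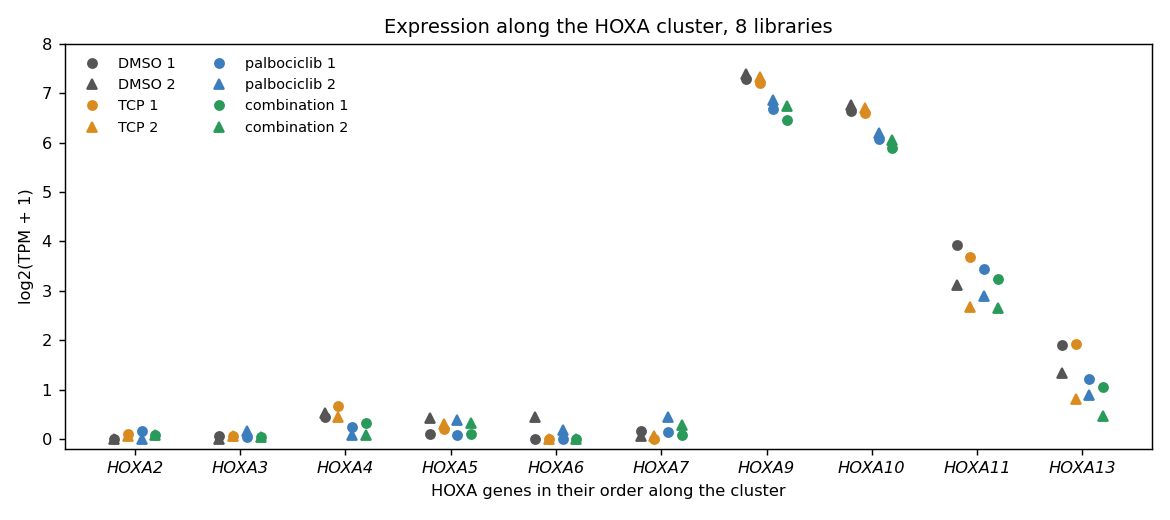
Level of 10 HOXA genes as log2(TPM + 1) on the vertical axis, with the genes in their order along the cluster on the horizontal axis and 1 point per library (circles for replicate 1, triangles for replicate 2, colours for the groups). HOXA9 and HOXA10 stand above all other genes shown in every library, and HOXA3, HOXA5 and HOXA7 lie near 0.

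The starts of HOXA7, HOXA9 and HOXA10 are shown because the step from barely detected to abundant lies between HOXA7 and HOXA9. Each sequence holds 300 bases around a RefSeq gene start, most of them upstream, taken from a table of build GRCh38.p14 and placed by exact match on the minus strand of GRCh37 at chr7:27196245-27196544 for HOXA7, chr7:27205107-27205406 for HOXA9 and chr7:27219431-27219730 for HOXA10. Capitals mark the letters CACGTG, an E-box that reads the same on both strands.
HOXA7: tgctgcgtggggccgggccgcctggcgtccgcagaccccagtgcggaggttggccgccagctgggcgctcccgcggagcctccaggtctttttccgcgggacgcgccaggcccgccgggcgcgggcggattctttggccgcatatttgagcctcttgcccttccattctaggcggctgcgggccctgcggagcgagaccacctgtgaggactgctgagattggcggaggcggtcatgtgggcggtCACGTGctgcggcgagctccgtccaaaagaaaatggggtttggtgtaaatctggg
HOXA9: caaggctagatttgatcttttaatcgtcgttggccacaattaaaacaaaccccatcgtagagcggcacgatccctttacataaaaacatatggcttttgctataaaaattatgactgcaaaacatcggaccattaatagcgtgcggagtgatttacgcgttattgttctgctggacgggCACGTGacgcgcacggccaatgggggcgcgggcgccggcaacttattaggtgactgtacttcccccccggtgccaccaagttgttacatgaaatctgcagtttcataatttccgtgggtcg
HOXA10: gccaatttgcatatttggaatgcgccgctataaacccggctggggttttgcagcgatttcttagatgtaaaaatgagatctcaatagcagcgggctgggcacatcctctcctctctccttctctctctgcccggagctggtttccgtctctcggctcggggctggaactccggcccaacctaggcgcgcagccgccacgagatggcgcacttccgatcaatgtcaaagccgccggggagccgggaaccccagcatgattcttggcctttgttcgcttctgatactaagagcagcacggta
HOXA7 and HOXA9 each held 1 CACGTG and HOXA10 held none, while 7.26% of 35116 promoter windows of the same length held it. The letters TGACAG (the core bound by MEIS proteins), TGATTNAT (a site of PBX and HOX together) and GAGGAAGT (a site of the myeloid factor PU.1) were searched on both strands and were found in none of these 3 windows, against 15.8%, 2.82% and 2.59% of all windows. The windows held 31 CpG for HOXA7, 22 for HOXA9 and 21 for HOXA10, and the median of all windows was 14. HOXA10 had another window, at chr7:27213890-27214189, with 25 CpG and none of these letters, which is not printed because it lies within the HOXA9 annotation. The barely expressed gene HOXA7 thus had the most CpG of these 4 windows. Of the 8 genes, 7 had windows in the table, with HOXA5 as the exception.

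HOXA3, HOXA5 and HOXA7 did not reach the expression filter and were not tested. HOXA3, a gene of the middle of the cluster, was at 0.0350 and 0 TPM in DMSO, 0.0368 and 0.0449 in TCP, 0.0296 and 0.117 with palbociclib, and 0.0313 and 0.0307 with the combination. HOXA5 was at 0.0734 and 0.347 TPM in DMSO, 0.154 and 0.236 in TCP, 0.0621 and 0.307 with palbociclib, and 0.0657 and 0.257 with the combination. HOXA7 was at 0.121 and 0.0475 TPM in DMSO, 0 and 0.0388 in TCP, 0.102 and 0.354 with palbociclib, and 0.0540 and 0.212 with the combination. HOXA5 was higher in replicate 2 than in replicate 1 of every group, and all its groups overlapped. The HOXA3 values of TCP lay above those of DMSO and of the combination, and its HOXA7 values lay below those of every other group. The other groups overlapped for both genes. Among the genes tested, 12.4% had both TCP libraries above both DMSO libraries and 22.3% had both below. Both combination libraries lay below both TCP libraries for 48.9% and above them for 25.9%. The highest value of HOXA3 and of HOXA7 was that of palbociclib replicate 2, the library with the high stromal markers. With no filter on low values, none of the 3 genes passed in any of the 6 comparisons, with adjusted p of 0.344 or more in limma. The exons of HOXA7 share 62.5% of their bases with HOXA-AS3 on the opposite strand, so part of these low values may be reads of either gene.

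**Figure D2:**
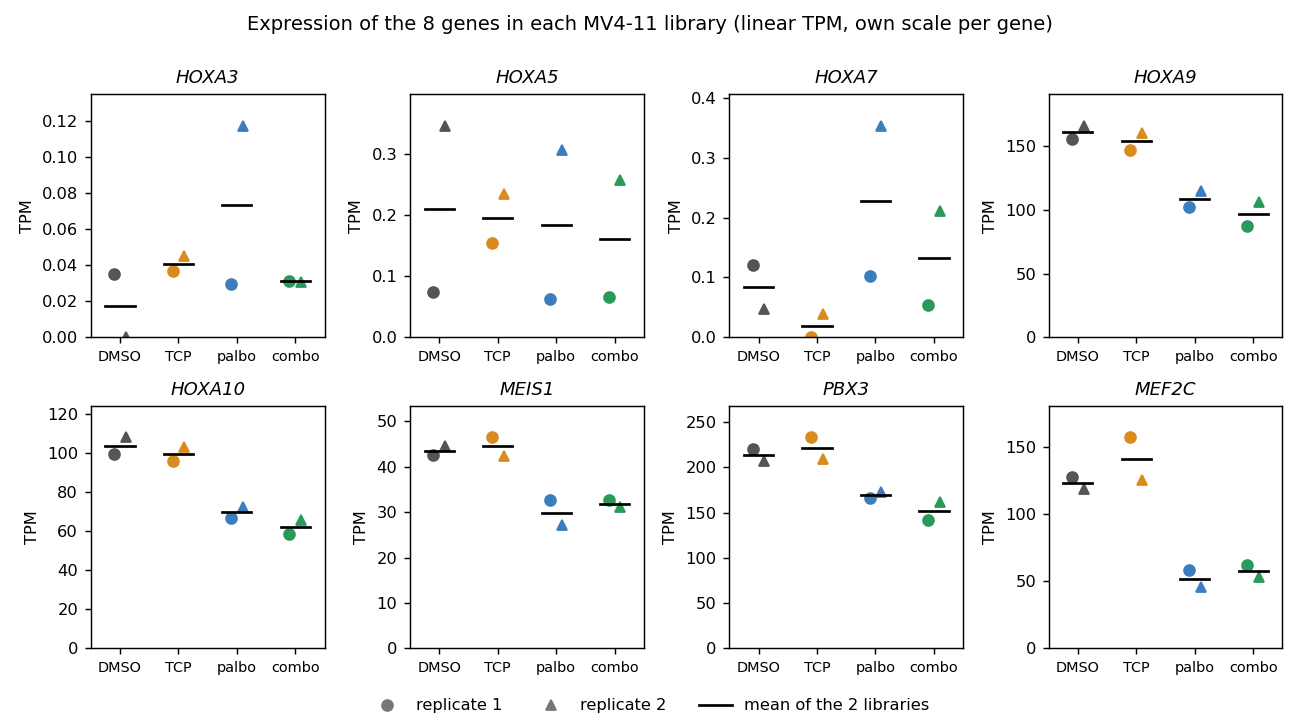
TPM of each of the 8 genes on a vertical axis that starts at 0 and is scaled to the gene, by group on the horizontal axis (circles replicate 1, triangles replicate 2, bars the mean of the 2 libraries). HOXA9, HOXA10, MEIS1, PBX3 and MEF2C are lower in the 4 libraries that received palbociclib than in the other 4, and HOXA3, HOXA5 and HOXA7 reach at most 0.354 TPM.

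TCP alone left the 5 expressed genes near their DMSO levels. HOXA9, a driver of MLL-rearranged leukaemia, had 156 and 166 TPM in DMSO (161 ± 7.23, SD, n = 2) and 147 and 161 TPM in TCP (154 ± 9.83). HOXA10, a HOXA factor that holds blood progenitors immature, had 99.3 and 108 TPM in DMSO and 95.7 and 103 TPM in TCP. MEIS1, the TALE cofactor that cooperates with HOXA9 in leukaemia, had 42.5 and 44.5 TPM in DMSO and 46.5 and 42.4 TPM in TCP. The DMSO and TCP values overlapped for these 3 genes, and so they did for the other 2, while 22.3% of all genes tested had both TCP libraries below both DMSO libraries. PBX3, the TALE protein that stabilises MEIS1 and HOXA9 on DNA, had 220 and 207 TPM in DMSO and 233 and 210 TPM in TCP. MEF2C, the MADS-box factor that is often high in MLL-rearranged AML, had 128 and 118 TPM in DMSO and 157 and 125 TPM in TCP.

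None of the 5 genes was called in TCP against DMSO, where 0.0565% of all genes tested were, and none had an unadjusted p below 0.05, which 8.77% of all genes had. The log2 fold changes were -0.06 for HOXA9 (95% interval -0.34 to 0.21) and -0.06 for HOXA10 (-0.28 to 0.16). They were 0.03 for MEIS1 (-0.22 to 0.28), 0.05 for PBX3 (-0.17 to 0.27) and 0.19 for MEF2C (-0.18 to 0.56), and the limma adjusted p were 0.800 to 0.965. With the replicate block MEF2C alone of the 5 had an unadjusted p below 0.05, with an interval of 0.01 to 0.37 and an adjusted p of 0.314 in limma, and 15.2% of all genes had such a p. A change of the size seen with palbociclib lies outside these intervals for each of the 5 genes, by its point value.

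With palbociclib all 5 expressed genes were lower than in DMSO, and MEF2C was the most affected. MEF2C had 58.3 and 45.7 TPM (52.0 ± 8.87, SD, n = 2) against 123 ± 6.61 TPM in DMSO, a decrease by 57.5% on the scale of TPM + 1 and a log2 fold change of -1.23 (SE 0.15, adjusted p = 0.00107 in limma). Both palbociclib libraries lay far below both DMSO libraries. MEF2C was the only 1 of the 5 genes called, where 9.1% of all genes tested were called in either direction and 4.56% were called lower. Only 2.91% of the genes tested had a lower log2 fold change. With no filter on low values the call was lost (limma adjusted p = 0.0131), and without palbociclib replicate 2 it held (limma adjusted p = 0.00886). In a bulk sample, fewer cells that express a gene and less RNA per cell cannot be told apart.

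The changes of the HOXA genes and MEIS1 were smaller and alike in size. HOXA9 had 102 and 115 TPM with palbociclib, and HOXA10 had 66.8 and 72.1 TPM. Neither overlapped with its DMSO values. HOXA9 fell by 0.56 on the log2 scale (SE 0.11, limma adjusted p = 0.00719) and HOXA10 fell by 0.57 (SE 0.09, adjusted p = 0.00293 in limma), so each lost about as much as the other. MEIS1 had 32.6 and 27.1 TPM and fell by 0.53 (SE 0.11, limma adjusted p = 0.00673), again with no overlap. PBX3 had 166 and 173 TPM and fell by 0.33 (SE 0.09, limma adjusted p = 0.0239), the smallest change of the 5.

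All 5 genes had an adjusted p below 0.05 and a lower level, as had 30.2% of all genes tested, and 49.7% of all genes tested had both palbociclib libraries below both DMSO libraries. The median log2 fold change of all genes was -0.16, and that of the 5 genes was -0.56. Relative to the median of all genes the log2 changes were -1.08 for MEF2C, -0.41 for HOXA9, -0.41 for HOXA10, -0.38 for MEIS1 and -0.17 for PBX3. For PBX3 the fall depended on the scaling, since its adjusted p was 0.0908 after quantile normalization and 0.184 after scaling each library by its median ratio (limma), and it was 0.0610 to 0.120 without any 1 of the 4 libraries compared. HOXA9, HOXA10, MEIS1 and MEF2C kept an adjusted p below 0.05 under all 18 alternatives. Without palbociclib replicate 2, the library with high stromal markers, the log2 fold changes were -0.64 for HOXA9, -0.62 for HOXA10, -0.41 for MEIS1, -0.36 for PBX3 and -1.06 for MEF2C.

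The combination of both molecules gave levels close to those with palbociclib. HOXA9 had 87.1 and 106 TPM (96.6 ± 13.4, SD, n = 2) and HOXA10 had 58.3 and 65.6 TPM (62.0 ± 5.12). Against DMSO, HOXA9 fell by 0.74 on the log2 scale (SE 0.11, limma adjusted p = 0.00177) and HOXA10 fell by 0.73 (SE 0.09, adjusted p = 0.000718 in limma). For both genes this is a loss of close to 40% on the scale of TPM + 1, with a percent change of -39.9 for each. PBX3 had 142 and 162 TPM and fell by 0.49 (SE 0.09, limma adjusted p = 0.00398), and its adjusted p was 0.0501 with median-ratio scaling. MEIS1 had 32.6 and 31.1 TPM and fell by 0.44 (SE 0.11, limma adjusted p = 0.0121). With the replicate number as a block its adjusted p was 0.00585, but it was 0.104 after quantile normalization, 0.118 with median-ratio scaling, 0.0657 without DMSO replicate 2 and 0.0724 without combination replicate 2.

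MEF2C had 61.7 and 53.2 TPM with the combination (57.4 ± 6.06) and fell by 1.09 on the log2 scale (SE 0.15, limma adjusted p = 0.00123). It was again the only 1 of the 5 genes called, where 13.7% of all genes were called in either direction and 7.82% were called lower, and 7.35% of all genes had a lower log2 fold change. The call was near the fold threshold. It was lost with no filter on low values (limma adjusted p = 0.0142), after quantile normalization (log2 fold change -0.92) and with median-ratio scaling (-0.86), and also without DMSO replicate 1 (-1.03, limma adjusted p = 0.0109) or without combination replicate 2 (-0.98, limma adjusted p = 0.0126). All 5 genes had an adjusted p below 0.05 in the limma test and were lower, as were 37.6% of all genes, and 54.2% of all genes had both combination libraries below both DMSO libraries. The median of all genes was -0.22 and that of the 5 genes -0.73.

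**Figure D3:**
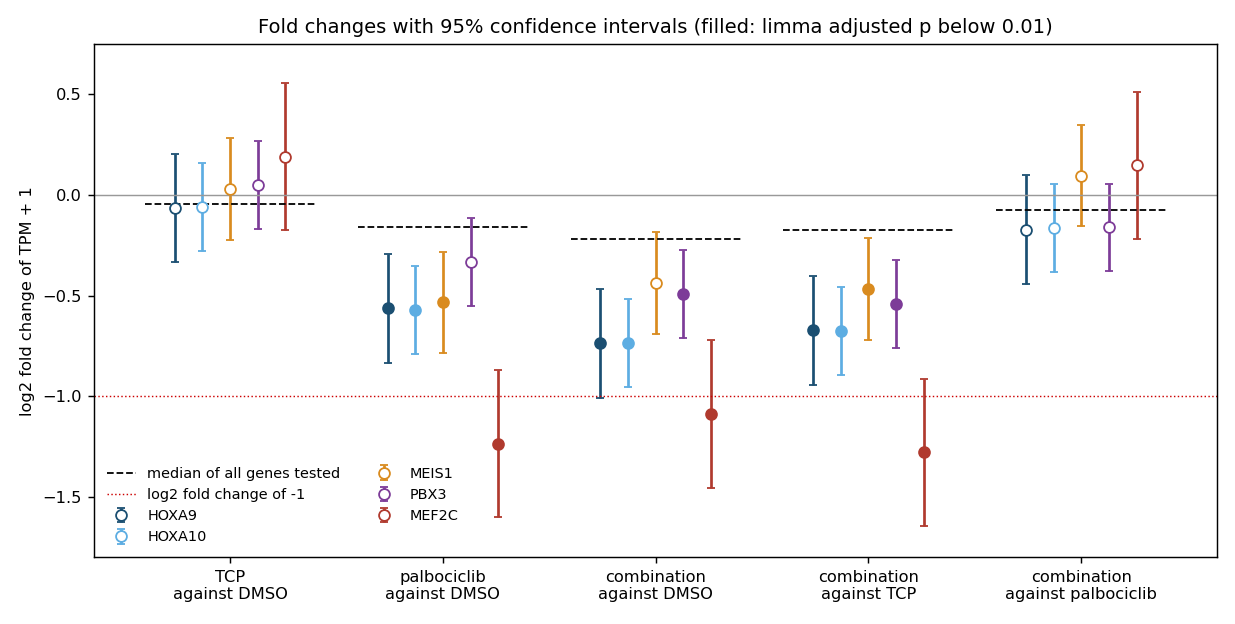
Log2 fold change of TPM + 1 with its 95% confidence interval (vertical axis) for the 5 genes tested in 5 comparisons (horizontal axis). Filled points have a limma adjusted p below 0.01, the black dashed lines give the median of all genes tested and the red dotted line a log2 fold change of -1, which only MEF2C passes, in the 3 comparisons of palbociclib or the combination with groups that lack palbociclib.

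Set beside TCP alone, the combination was lower for all 5 genes, with the same combination libraries as above and with TCP in place of DMSO. The log2 fold changes were -0.67 for HOXA9, -0.67 for HOXA10, -0.47 for MEIS1, -0.54 for PBX3 and -1.28 for MEF2C, with limma adjusted p of 0.00292, 0.00117, 0.00992, 0.00289 and 0.000703. In each gene both combination libraries lay below both TCP libraries, which held for 48.9% of all genes tested. MEF2C was called, as were 12.2% of all genes tested. All 5 were lower with an adjusted p below 0.05, as were 33.8% of all genes, and MEIS1 missed it without combination replicate 2 (limma adjusted p = 0.0637). The median was -0.18 over all genes and -0.67 over the 5.

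No change of these genes passed the test when TCP was added to palbociclib. Compared to palbociclib alone, the log2 fold changes of the combination were -0.17 for HOXA9 (95% interval -0.44 to 0.10), -0.16 for HOXA10 (-0.38 to 0.05) and -0.16 for PBX3 (-0.38 to 0.06). They were 0.10 for MEIS1 (-0.16 to 0.35) and 0.15 for MEF2C (-0.22 to 0.51), and the limma adjusted p were 0.420 to 0.700. None of the 5 genes was called, against 0.502% of all genes tested, and none had an unadjusted p below 0.05, against 17.5%. Both combination libraries lay below both palbociclib libraries for HOXA10 and PBX3, which 37.2% of all genes also showed, while HOXA9, MEIS1 and MEF2C overlapped. With the replicate block the intervals were -0.33 to -0.02 for HOXA9 and -0.30 to -0.03 for HOXA10. These 2 genes then had an unadjusted p below 0.05, as had 26.1% of all genes, with limma adjusted p of 0.158 and 0.125. Within each replicate number the combination was lower than palbociclib for HOXA9, HOXA10 and PBX3 and higher for MEIS1 and MEF2C.

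The interaction, which asks whether the effect of both molecules differs from the sum of the single effects on the log2 scale, was -0.11 for HOXA9, -0.10 for HOXA10, 0.07 for MEIS1, -0.21 for PBX3 and -0.04 for MEF2C. None of the 5 genes was called and none had an unadjusted p below 0.05, with or without the block. No gene of the 14151 was called in this test with limma (0% of all genes), and 6.39% had an unadjusted p below 0.05. The widest interval of the 5 was that of MEF2C, from -0.56 to 0.47. In order of level, each of the 5 genes had DMSO and TCP as a higher pair and palbociclib and the combination as a lower pair, and within neither pair did a difference reach an adjusted p below 0.05, with or without the block.

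The 2 abundant HOXA genes, HOXA9 and HOXA10, kept a nearly constant ratio. Over the 8 libraries, HOXA10 had 0.618 to 0.670 times the TPM of HOXA9, with a coefficient of variation of 2.51%. The read-through transcript HOXA10-HOXA9 had 0.864 to 0.896 times the TPM of HOXA9 (coefficient of variation 1.13%), and the antisense transcript HOXA10-AS had 0.884 to 0.961 times (3.27%). The same ratio to HOXA9 varied by 9.76% for PBX3, 14.7% for MEIS1 and 30.1% for MEF2C. These rows are not separate measurements. A read-through transcript of HOXA10 and HOXA9 holds sequence of both, so its steady ratio to HOXA9 adds no support, and its exon overlap was not measured. In the GENCODE annotation of GRCh37 the exons of HOXA10-AS share 608 of their 1654 bases with HOXA10 and 422 with HOXA9, on the opposite strand. The library kit keeps the strand, but the strand setting of the counting is not given in the sources used here, so reads of these rows may have been shared and the level of HOXA10-AS is uncertain. The same holds to a lesser extent for MEIS1, which shares 1437 exon bases with MEIS1-AS2, and for MEF2C, which shares 469 with MEF2C-AS1, and these antisense rows had 1.60 to 2.95 and 1.07 to 2.94 TPM.

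**Figure D4:**
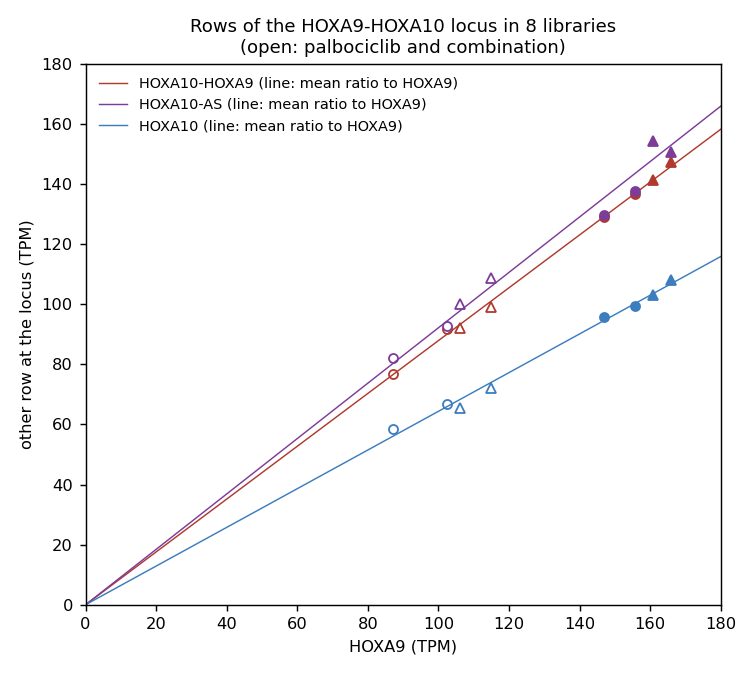
TPM of HOXA10, HOXA10-HOXA9 and HOXA10-AS (vertical axis) against TPM of HOXA9 (horizontal axis) in the 8 libraries, filled for DMSO and TCP and open for palbociclib and the combination, with circles for replicate 1 and triangles for replicate 2. Each line has the mean ratio to HOXA9 as its slope, 0.879 for HOXA10-HOXA9, and the points of each transcript lie along their line in all groups.

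Across the 8 libraries the Pearson correlation of log2(TPM + 1) was highest between HOXA9 and HOXA10 (r = 0.995), and next between MEIS1 and MEF2C (r = 0.985), which lie on chromosomes 2 (chr2:66660584-66801001, plus strand) and 5 (chr5:88012934-88200074, minus strand). PBX3 (chr9:128509624-128729656, plus strand) correlated with HOXA9 at r = 0.938, and the lowest value among the 5 genes was that of HOXA9 with MEIS1 (r = 0.813). MEIS1 and MEF2C were lowest in palbociclib replicate 2, whereas HOXA9, HOXA10 and PBX3 were lowest in combination replicate 1. These are descriptions over 8 libraries that share the same 4 treatments. A gene that differs between libraries with and without palbociclib will correlate with any other such gene. Among 11103 other genes with a mean of at least 5 TPM, those most alike to HOXA9 were HOXA10-HOXA9 (r = 0.999), SLC43A3 (0.996) and FANCA (0.995), and for HOXA10 they included HOXA10-HOXA9 (0.997) and ESPL1 (0.995). HOXA10-HOXA9 is the read-through of HOXA10 and HOXA9 and not a separate measurement. MEIS1 was followed most closely by C2CD5 (r = 0.993), LZIC (0.991) and KPNA3 (0.990), PBX3 by PFKP (0.990), GTF2IRD1 (0.988) and HACL1 (0.988), and MEF2C by MMD (0.999), FBXW11 (0.997) and SNX5 (0.997).

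The other transcripts of the HOXA cluster showed no call in palbociclib or the combination against DMSO. Of 13 listed, 7 were tested, and their median log2 fold change was -0.52 with palbociclib and -0.58 with the combination, beside -0.16 and -0.22 over all genes. Among the 7, HOXA10-HOXA9 and HOXA10-AS are not separate measurements from HOXA9 and HOXA10. Only these rows were lower at a limma adjusted p below 0.05 in either comparison, and the palbociclib median is the value of HOXA10-AS. HOXA10-HOXA9 fell by 0.57 (limma adjusted p = 0.00549) and by 0.75 (limma adjusted p = 0.00129). HOTAIRM1, a long noncoding RNA known to be induced in myeloid differentiation, rose instead, by 0.34 with palbociclib (limma adjusted p = 0.0432) and by 0.41 with the combination (limma adjusted p = 0.0176). It was the only transcript of the 7 with a positive change. In the HOXB cluster 3 of 10 genes were tested, HOXB3, HOXB4 and HOXB7, with a median of -0.70 and -0.56 and no call, and HOXB4, a factor of blood stem cell growth, fell by 0.70 (limma adjusted p = 0.0383) and by 0.75 (limma adjusted p = 0.0255).

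The TALE and MEF2 families did not move as 1 group. Of 9 other TALE genes 7 were tested, with medians of -0.06 and -0.17, close to those of all genes. MEIS2 fell by 0.77 (limma adjusted p = 0.0057) and by 0.94 (limma adjusted p = 0.0018), beside the fall of its relative MEIS1. MEIS3 went the other way: it had 1.96 and 1.02 TPM in DMSO, 3.54 and 1.62 in TCP, 5.18 and 6.49 with palbociclib, and 9.59 and 11.3 with the combination. It was the only TALE gene called, with log2 fold changes of 1.48 (limma adjusted p = 0.00709) and 2.22 (limma adjusted p = 0.000963). Among the relatives of MEF2C none was called, and the log2 fold changes with palbociclib and the combination were -0.66 and -0.59 for MEF2A, 0.16 and 0.41 for MEF2B, and -0.23 and -0.25 for MEF2D. MEF2C thus had the lowest fold change of its family in both comparisons.

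The genes joined in the fusion, KMT2A and AFF1, were lower too. Their rows hold reads of the normal genes and of the fusion alike. KMT2A had a log2 fold change of -0.65 with palbociclib (limma adjusted p = 0.0142) and -0.77 with the combination (limma adjusted p = 0.00569), and AFF1 of -0.71 (limma adjusted p = 0.00132) and -0.89 (limma adjusted p = 0.000347). Of 14 listed genes of the complex, all tested, DOT1L and PSIP1 were called lower in both comparisons and none higher, where 4.56% and 7.82% of all genes were called lower. The medians of the list were -0.39 and -0.52, beside -0.16 and -0.22 over all genes. With no fold threshold, 8 of the 14 were lower and 1 was higher at an adjusted p below 0.05 in each comparison. Of all genes tested, 30.2% and 37.6% were lower by this rule, and 14.8% and 15.9% were higher. The gene of the list that rose was the elongation factor ELL2 with palbociclib (0.82, limma adjusted p = 0.0277) and the kinase CDK9 with the combination (0.46, limma adjusted p = 0.0151). DOT1L had -1.03 and -1.15, and PSIP1, which tethers MLL to chromatin, had -1.45 and -1.81.

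Of 23 other genes reported as MLL-fusion targets, 21 were tested, of which 2 were called lower with palbociclib and 3 with the combination, beside 4.56% and 7.82% of all genes, and none was called higher. With no fold threshold, 11 and 14 were lower at an adjusted p below 0.05, as were 30.2% and 37.6% of all genes. Only GNAQ was higher, by 0.88 (limma adjusted p = 0.00687) and by 0.84 (limma adjusted p = 0.00649), where 14.8% and 15.9% of all genes were higher by this rule. FLT3, the receptor kinase mutated in this line, had a log2 fold change of -1.52 with palbociclib and -1.71 with the combination. BCL2, which blocks apoptosis, had -1.69 and -1.91, and both were called lower in each comparison. SATB1, a chromatin organiser, was called lower with the combination (-1.23) and had -0.97 with palbociclib, just short of the fold threshold. MYC, a growth regulator, fell by 0.90 (limma adjusted p = 0.000191) and by 0.94 (limma adjusted p = 9.14e-05) and was not called. The medians of the list were -0.58 and -0.49, near those of the 5 genes with palbociclib. The lists were written with earlier results of these data known, and their counts are descriptions.

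The RNA levels of the targets of the molecules are given as a description, and they cannot show whether the enzymes were inhibited. With TCP alone the log2 fold changes against DMSO were -0.02 for CDK4, -0.28 for CDK6 and -0.02 for KDM1A, and none was called. CDK4 had log2 fold changes of -0.77 with palbociclib and -1.07 with the combination, CDK6 had -0.14 and -0.49 (0.01 and -0.27 relative to the median of all genes), and KDM1A, which encodes LSD1, had -0.86 and -0.81. Of the 12 myeloid markers, 9 were called higher with palbociclib, where 4.54% of all genes were called higher, and 9 were called higher and CTSG lower with the combination, where 5.87% and 7.82% of all genes were. In each of these groups, where the 5 genes were lower than in DMSO, 11 of the markers were higher and 1 was lower. From palbociclib to the combination 4 markers were called higher, where 0.459% of all genes were, while none of the 5 genes was called. The relation between the markers and the 5 genes was not tested.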

How the data were processed

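Per the labels and methods, the authors aligned the reads to hg19 with Subread, obtained counts per gene with featureCounts 1.6.4 and deposited them as TPM, a unit that sums to the same total in each library. The submitters' processing notes also name SAMtools 1.9 and DESeq2 1.26.0. The gene annotation, the gene lengths and the strand setting are not given in the sources used here. TPM hold no depth, genes that take a larger share lower all others, and no counting interval is given.

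The values were put on the log2(TPM + 1) scale and fitted with limma 3.58.1 (R 4.3.3), using group as the only factor for all 8 libraries, a mean-variance trend and 4 residual degrees of freedom. Of 26364 symbols, the 14151 that reached 1 TPM in 2 or more libraries were tested. TPM need a test on the log scale, so no count test was run. The fit was tested on simulated data.

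There were 6 comparisons: every treatment against DMSO, the combination against TCP and against palbociclib, and the interaction term. The 3 against DMSO share the DMSO libraries, and those of the combination share its libraries. The groups share the replicate numbers 1 and 2. After the group means were subtracted, libraries with the same number correlated at 0.169 to 0.491 in the 6 pairs of groups. The main fit did not use the replicate numbers. Only the replicate block, an alternative, takes same-numbered libraries as pairs, and this pairing rests on the values alone.

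Tried as alternatives were no filter, a pseudocount of 0.1, a filter at a mean of 5 TPM, quantile normalization, median-ratio scaling, the replicate block, only the groups compared, no trend, an adjusted p below 0.05, no fold threshold, and each library left out. The members and lists were chosen with earlier results of these data known. All 8 members are named with every value, every called gene of a list or at most 4 of it by size of change, and for each tested member the 3 genes most alike by Pearson correlation. KMT2A, AFF1, ELL2, CDK9, GNAQ, MYC, NKG7 and CD79A are named outside this rule, after their values were seen. A few genes that the rule covers are not reported here. Coordinates and exon overlaps are from GENCODE v44 placed on GRCh37, the build of hg19, which need not be the annotation counted on. Promoter sequences are from RefSeq, placed on GRCh37 by exact match.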

Additional observations from a re-analysis of the deposited data

How the results depend on the processing

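The log2 fold changes of the 5 tested genes with palbociclib or the combination against DMSO, and with the combination against TCP, kept their sign under all 18 alternatives. The number of the 5 called changed as follows. With no filter on low values it was 0 for palbociclib against DMSO (MEF2C adjusted p = 0.0131, limma) and 0 for the combination against DMSO (0.0142). It was 0 for the combination against DMSO after quantile normalization and 0 with median-ratio scaling. With no fold threshold it was 4 for palbociclib against DMSO, 4 for the combination against DMSO and 5 for the combination against TCP. By that rule 27.3%, 36% and 32.5% of all genes tested were called, in the same order. With 1 library left out it ranged from 0 to 1 for the combination against DMSO, with 0 without DMSO replicate 1 or combination replicate 2. The lone library of a group was then assumed to vary like the other groups. The replicate block, which treats the numbers as pairing the libraries, left the number called at 1 for palbociclib and for the combination against DMSO, and brought only MEIS1 in the combination against DMSO to the other side of an adjusted p of 0.01 (0.00585).

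Small changes turned sign when 1 library was left out. For TCP against DMSO, HOXA9 ranged from -0.13 to 4.25e-05 (without TCP replicate 1), MEIS1 from -0.034 (without TCP replicate 1; -0.0025 without DMSO replicate 1) to 0.095, and PBX3 from -0.028 (without TCP replicate 1) to 0.13. For the combination against palbociclib, MEIS1 ranged from -0.031 to 0.22 and MEF2C from -0.024 to 0.32, both lowest without palbociclib replicate 2. For the interaction, HOXA9 ranged from -0.25 to 0.033 (without combination replicate 1), MEIS1 from -0.062 (without palbociclib replicate 2) to 0.19, and MEF2C from -0.22 to 0.13, above 0 without DMSO replicate 2 (0.011), TCP replicate 1 (0.12), palbociclib replicate 1 (0.13) or combination replicate 2 (0.062). None of these was called, and the cause was not tested. With 2 libraries a group and no counts, an interval that holds 0 leaves changes of either sign within it possible.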
